A study of Mus musculus with 6 samples.

Results

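Dense clusters of distal peaks were stretches of the genome in which at least 8 ATAC-seq peaks lay close together and away from gene ends, in untreated mouse embryonic stem cells. On chromosomes 1 to 19, peaks over 1 kb from every annotated end of a protein-coding RefSeq gene were taken as distal. Neighbouring distal peaks were joined where the gap between them was 12500 bp or less, and joined groups of 8 or more peaks were kept. The rule left 554 dense clusters among 32994 joined groups, single peaks included (1.68%). They held 5842 of 59827 distal peaks (9.76%, with a Wilson 95% interval of 9.53 to 10.0%). Peaks enter dense clusters in blocks of 8 or more, so intervals over peaks, here and below, are too narrow. Peak positions chose the members, so the number, spacing and span of the peaks describe the choice and are not findings.

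ATAC-seq maps accessible DNA, where the Tn5 transposase can insert sequencing adapters. The series lists 6 samples, 1 in each of 6 groups, all from E14 mouse embryonic stem cells with an NSD1-dTAG knockin. NSD1 is a methyltransferase of histone H3 lysine 36, and the dTAG-13 compound brings a dTAG-tagged protein to degradation. In 4 groups the stem cells grew in 2i/LIF medium and had 0, 1, 6 or 24 h of dTAG-13 at 500 nM, and the other 2 are embryoid bodies at day 6 (EB_d6), with or without dTAG-13. The 0 h library, labelled as having no treatment, is the only library used here, and nothing is reported of the other 5. Groups follow the titles, since a treatment of 6 h is also given in the labels for 1 h and for 24 h. The 2i/LIF medium holds inhibitors of MEK and of GSK3 together with leukemia inhibitory factor, and all 6 groups carry the tagged NSD1. Whether the tagged line is 1 clone is not stated. With 1 library there was no replicate, so no p-value was computed and every comparison describes this library.

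The labelled cell type was checked at the gene ends. Peaks lay at the ends of 6 of 7 stem cell markers, while Esrrb had none at its ends. The tallest were 152 at Pou5f1, 134 at Zfp42, 119 at Sox2, 114 at Klf4, 84 at Tfcp2l1 and 58 at Nanog. These heights are summit pileups, that is, how many reads or fragments overlap at the highest point of a peak, recovered from the authors' fold and p-values. Of the primitive endoderm markers Gata6 (28) and Sox17 (62) had a peak, that of Sox17 above that of Nanog, and Gata4 and Dab2 had none. Of the fibroblast markers Col1a1 (38) and Twist2 (20) had a peak and Col3a1 and Acta2 had none.

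Distal accessible sites are the usual places of enhancers, which raise transcription of a gene from a distance. In embryonic stem cells, groups of neighbouring enhancers with dense binding of pluripotency factors, often called super-enhancers, are known near genes that hold the cell identity. They are commonly defined by joining nearby enhancers and ranking the joined regions by factor binding or acetylation, and neither was measured here. Tandem arrays of genes read by RNA polymerase III, such as tRNA and 5S rRNA genes, are also known to be open.

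MicroRNA genes lay inside 26 of the 554 dense clusters. They overlapped 0.120% of member peaks, against 0.0806% of single peaks, 0.127% in groups of 2 to 3 and 0.0837% in groups of 4 to 7. Member peaks thus did not stand apart in this. The sequences of 2 such loci are shown because most microRNAs of each have like seeds. The miR-290 genes are the main microRNA cluster of mouse embryonic stem cells and are known to act on the cell cycle and on differentiation. They lay in a dense cluster of 14 peaks at chr7:3164141-3237859, downstream of its tallest peaks. The mature 3p arms, from RefSeq (GRCm38.p6, plus strand), are written 5′ to 3′ with the seed, bases 2 to 8, in capitals.
miR-290a-3p: aAAGUGCCgccuaguuuuaagccc
miR-291a-3p: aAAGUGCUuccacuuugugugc
miR-291b-3p: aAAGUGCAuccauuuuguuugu
miR-294-3p: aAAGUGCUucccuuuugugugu
miR-295-3p: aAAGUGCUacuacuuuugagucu
miR-293-3p: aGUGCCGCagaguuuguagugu
The seed AAGUGCU was shared by miR-291a-3p, miR-294-3p and miR-295-3p. The seed of miR-290a-3p was AAGUGCC and that of miR-291b-3p AAGUGCA, while miR-293-3p had GUGCCGC.

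The genes of miR-183, miR-96 and miR-182, known from sensory organs, lay in another dense cluster, of 11 peaks, at chr6:30148960-30206132 beside Nrf1. Their mature 5p arms (RefSeq, GRCm38.p6, minus strand) are shown in the same way.
miR-183-5p: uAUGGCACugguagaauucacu
miR-96-5p: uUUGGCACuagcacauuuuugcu
miR-182-5p: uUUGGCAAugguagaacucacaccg
All 3 seeds hold the run UGGCA. No peak of the cluster covered these microRNA genes. The nearest member peaks were 1643 bp from the Mir183 hairpin, 1710 bp from that of Mir96 and 1273 bp from that of Mir182.

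Transcription start windows from RefSeq (GRCm38.p6) are shown for 5 genes whose annotated start lay under a member peak, because such starts place a promoter inside a dense cluster. Each window runs from 250 bases before the start to 50 after it, 5′ to 3′ on the strand of the gene. Capitals mark exact matches, on either strand, to 10 short motifs of known factor families. Those of pluripotency factors were ATGCAAAT for the octamer of POU factors, ACAAAG for SOX factors, GGGNGTGG for KLF factors and CAAGGTCA for ESRRB. Those of signalling were TTCCNGGAA for STAT factors, CTTTGAT for TCF factors and TGANTCA for the AP-1 dimers. The others were AGGGGGC for the insulator protein CTCF, AGATAA for GATA factors and GGAATG for TEAD factors. Gm40987, an lncRNA gene (chr13:65990947-65991246, minus strand), started under the tallest member peak of all, with a pileup of 336. Platr22, also an lncRNA gene (chr1:136695961-136696260, plus strand), started under the tallest peak of the cluster between Nr5a2 and Zfp281, with a pileup of 166. Mirc35hg (chr6:30174076-30174375, minus strand), the host gene of the miR-183 group, started under a peak of 104. Kdm2b, which encodes a CpG island binding H3K36 demethylase (chr5:122900301-122900600, minus strand), had an internal start under a peak of 98. Axin2, a feedback inhibitor of Wnt signalling (chr11:108920099-108920398, plus strand), had one under a peak of 95.
Gm40987: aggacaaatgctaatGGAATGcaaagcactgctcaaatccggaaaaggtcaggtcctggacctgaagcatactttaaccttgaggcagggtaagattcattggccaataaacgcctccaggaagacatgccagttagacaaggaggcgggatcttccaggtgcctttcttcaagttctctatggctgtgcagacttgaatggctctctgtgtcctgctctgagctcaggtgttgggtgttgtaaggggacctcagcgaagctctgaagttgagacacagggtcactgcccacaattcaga
Platr22: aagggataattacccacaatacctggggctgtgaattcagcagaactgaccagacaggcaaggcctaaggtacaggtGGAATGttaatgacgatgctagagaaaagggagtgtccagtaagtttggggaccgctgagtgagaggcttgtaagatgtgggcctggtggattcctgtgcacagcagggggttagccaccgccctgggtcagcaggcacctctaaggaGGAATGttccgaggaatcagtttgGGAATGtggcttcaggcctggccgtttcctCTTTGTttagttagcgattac
Mirc35hg: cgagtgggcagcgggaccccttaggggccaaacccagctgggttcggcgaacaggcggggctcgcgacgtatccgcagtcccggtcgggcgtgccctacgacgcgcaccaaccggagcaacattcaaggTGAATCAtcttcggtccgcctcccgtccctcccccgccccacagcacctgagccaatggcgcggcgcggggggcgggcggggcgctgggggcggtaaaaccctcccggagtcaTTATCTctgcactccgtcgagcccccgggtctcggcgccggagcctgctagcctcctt
Kdm2b: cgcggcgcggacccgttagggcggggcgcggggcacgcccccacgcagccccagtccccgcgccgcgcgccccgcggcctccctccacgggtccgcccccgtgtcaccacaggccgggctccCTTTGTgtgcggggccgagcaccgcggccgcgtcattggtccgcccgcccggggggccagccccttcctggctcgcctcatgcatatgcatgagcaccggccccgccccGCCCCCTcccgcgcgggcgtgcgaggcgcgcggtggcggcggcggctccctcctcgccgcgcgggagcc
Axin2: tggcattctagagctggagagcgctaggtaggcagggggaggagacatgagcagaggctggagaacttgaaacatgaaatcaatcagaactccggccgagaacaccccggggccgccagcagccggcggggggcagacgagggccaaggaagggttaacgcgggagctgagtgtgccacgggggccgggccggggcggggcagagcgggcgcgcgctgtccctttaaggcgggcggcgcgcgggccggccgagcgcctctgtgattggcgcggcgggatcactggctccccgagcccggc
The Platr22 window held GGAATG at 3 places and the reverse complement of ACAAAG. The Mirc35hg window held TGANTCA and the reverse complement of AGATAA. The Kdm2b window held the reverse complements of ACAAAG and AGGGGGC, and the Axin2 window none of the 10. In the Platr22 peak the summit lay 944 bp before the start, outside the printed window.

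The dense clusters were mostly short. The number of peaks ranged from 8 to 51 with a median of 10, and 350 clusters (63.2%) held 8 to 10 peaks. Only 11 clusters held 20 or more. Spans ran from 21.3 to 183 kb with a median of 53.0 kb, and the 554 spans came to 31.8 Mb, of which 3.00 Mb lay under member peaks. The median over clusters of their median summit spacing was 5820 bp.

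Height was spread unevenly between clusters and within them. The summed pileup of a cluster ranged from 107 to 2786 with a median of 343, and the 55 clusters with the highest sums held 22.0% of all member pileup. The tallest peak of a cluster had a median pileup of 86 (17 to 336). It passed 100 in 204 clusters and 200 in 15, and stayed under 50 in 81. The tallest peak gave a median of 23.3% of its cluster's sum, from 4.70% in the evenly spaced array near Atg7 to 73.2% in the cluster near Gm46425. It was the first or last peak of the cluster in 102 clusters (18.4%). First and last peaks had a median pileup of 24 (n = 1108), and the peaks between them 29 (n = 4734).

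**Figure D1:**
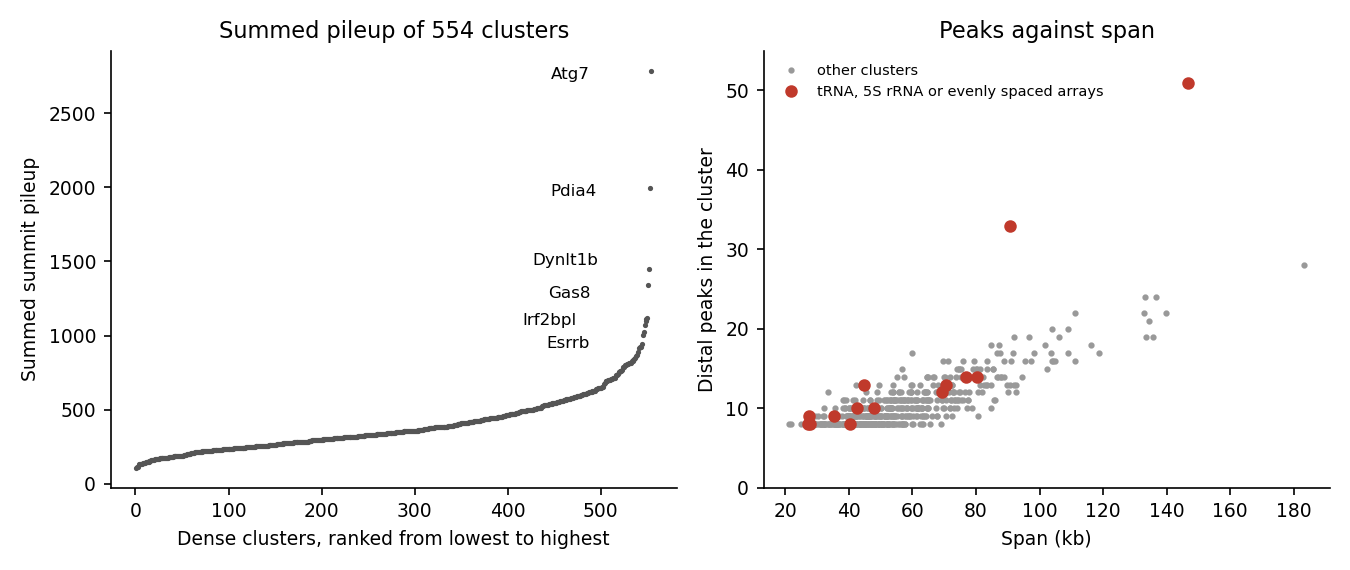
Left, summed summit pileup of each of the 554 dense clusters, ranked, with the 6 highest named. Right, number of distal peaks against span in kb for each cluster, with the 14 clusters in tRNA, 5S rRNA or evenly spaced arrays in red. The array near Atg7 (51 peaks, summed pileup 2786) and the 5S rRNA genes near Gas8 (33 peaks) hold more peaks than any other cluster.

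Member peaks had a higher median pileup and a lower median fold than other distal peaks. Median pileup was 17 for peaks that stood alone, 20 in groups of 2 to 3, 23 in groups of 4 to 7 and 28 in dense clusters (order-statistic 95% interval 27 to 29). The share of peaks with a pileup over 100 was 2.02%, 2.57%, 3.66% and 5.26% in the same order. Both measures were thus higher in each class with more neighbours. The authors' fold enrichment, the ratio of the summit pileup to the local background, went the other way, with medians of 7.39, 6.52, 6.08 and 5.80. The local background that enters this ratio had medians of 1.302, 1.83, 2.63 and 3.75 pileup units, and the close neighbours that the rule required can raise it, so the lower fold is not independent of the rule. The call of a peak also sets its pileup against this background, so the higher pileup is not independent of the rule either. Peaks with a pileup under 10 were 14.7% of single peaks and 5.27% of peaks in dense clusters. The share of peaks with this background at or near its lowest value, 1.3, was 62.0% for single peaks and 9.89% in dense clusters. Widths did not follow the number of neighbours, with medians of 441, 418, 432 and 443 bp.

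**Figure D2:**
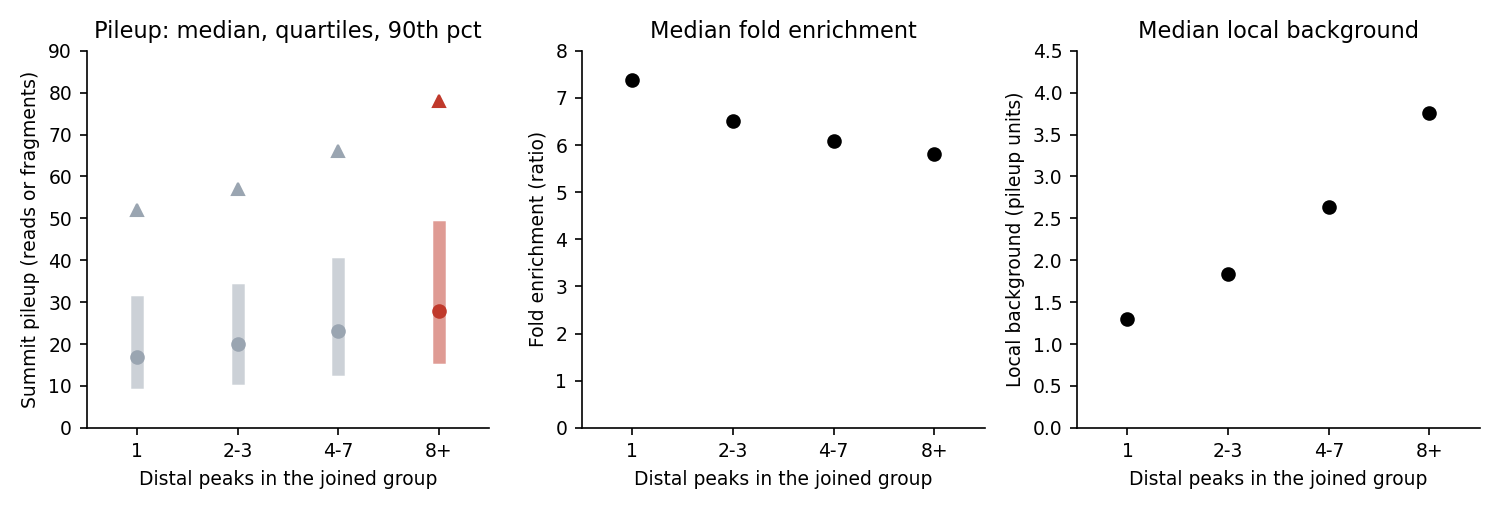
Distal peaks by the number of peaks in their joined group. Left, summit pileup as median (circle), quartiles (bar) and 90th percentile (triangle), middle, median fold enrichment, right, median local background in pileup units. From single peaks to dense clusters the median pileup goes from 17 to 28, the median fold from 7.39 to 5.80 and the background from 1.302 to 3.75.

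A larger share of tall peaks than of all distal peaks lay in dense clusters. Of the 6166 distal peaks with a pileup of 59 or more, 1002 lay in dense clusters (16.3%, interval 15.4 to 17.2%), against 9.76% of all distal peaks. Dense clusters held 12.6% of the summed pileup of all distal peaks. Groups just below the limit looked much like those just above it. The 259 groups of 7 peaks had a median span of 37.9 kb, a median peak pileup of 25 and a median fold of 5.99. The 175 clusters of 8 peaks had 43.4 kb, 26 and 6.14.

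The largest clusters by number of peaks were arrays. The cluster with the most peaks, 51 at chr6:114490260-114637100, lay 6.03 kb from Atg7, an autophagy gene, and held no annotated gene of any kind. Its pileups ranged from 16 to 131 with a median of 50. Its summits were spaced by a median of 2459 bp, 78.0% of the spacings lay within 10% of that value, and 96.0% lay within 10% of 1, 2 or 3 times it. No other dense cluster was as regular by the first of these measures, whose median over all clusters was 20%. The cluster with the next most peaks, 33 at chr8:123538564-123629337 beside Gas8, lay over 48 annotated rRNA genes of the 5S type, which encode the small rRNA of the large ribosomal subunit. Of its 33 peaks 30 overlapped such a gene. Its pileups ranged from 21 to 71 around a median spacing of 1739 bp, and 100% of the spacings lay within 10% of 1, 2 or 3 times that. The copies of the 5S genes have near-identical sequence, so how reads were divided among them depends on alignment settings that are not stated.

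**Figure D3:**
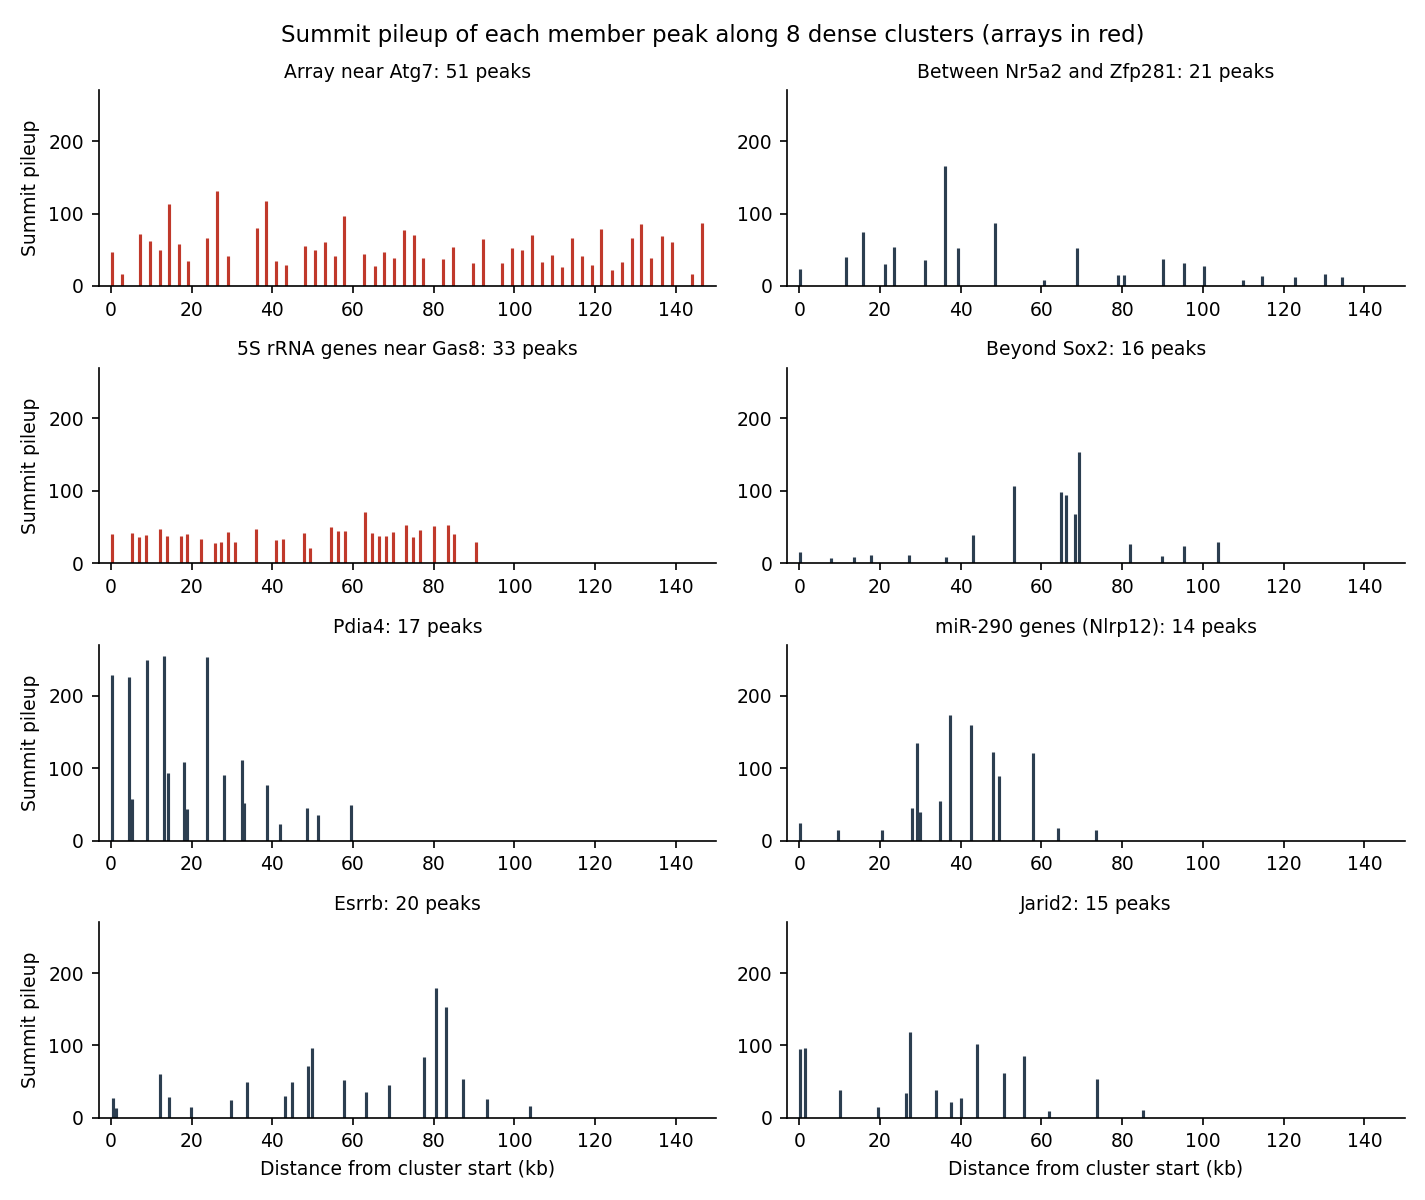
Summit pileup of each member peak (vertical line) against its distance from the start of the cluster in kb, for 8 dense clusters on the same axes, with the 2 evenly spaced arrays in red. The array near Atg7 and the 5S rRNA genes show lines at near-regular steps. The clusters at Esrrb, Sox2, the miR-290 genes and Jarid2 are uneven, with peaks of 179, 153, 173 and 118 among lower ones. The cluster at Pdia4, not counted as an array, reaches 255 and has some spacings alike.

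Transfer RNA genes, which encode the adaptors of translation, were often found in dense clusters. Of 391 annotated tRNA genes 135 lay within the spans of dense clusters (34.5%, interval 30.0 to 39.4%). Under a member peak lay 117, and under any peak of these chromosomes 263. The interval treats the genes as independent, and they lie in groups, so it is too narrow. The rule set aside peaks near protein-coding gene ends only, so peaks on tRNA genes could count as distal. Groups of tRNA genes could thus reach 8 peaks through their own peaks. A tRNA gene lay under 93 of the 5842 member peaks (1.59%), against 0.0522% of single peaks, 0.132% of peaks in groups of 2 to 3 and 0.198% in groups of 4 to 7. In 12 clusters at least 3 peaks lay on tRNA genes. Of these, 7 were on chromosome 13, near Trim27, H4bc24, Zfp184, Prss16, Vmn1r223, Btn1a1 and Btn2a2, and 3 on chromosome 3, near Fcgr1, BC107364 and Hjv. The 2 others were near Cfap126 on chromosome 1 and Zfp213 on chromosome 17. The Btn1a1 cluster held 21 tRNA genes, with 10 of its 13 peaks on them and pileups of 18 to 173. In the Trim27 cluster 12 of 14 peaks lay on tRNA genes, with pileups of 8 to 86. Without the 14 clusters in tRNA, 5S rRNA or evenly spaced arrays, the median pileup of member peaks was 27 and the median fold 5.81, against 28 and 5.80 with them.

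The clusters with the most peaks beside the arrays, and those with the most peaks per 10 kb, are described by values that the rule used. The cluster at Arhgef10l (chr4:140531119-140714348) had 28 peaks over 183 kb, the longest span of all, with pileups of 10 to 123. Msi2, which encodes an RNA-binding protein of stem cells, held all 24 peaks of its cluster (chr11:88512631-88645757), with pileups of 10 to 94. At Zfp217, a zinc finger gene (chr2:170130396-170267004), 24 peaks had pileups of 9 to 72. Clusters of 22 peaks lay at Rnf220, Ahdc1 and Sgsm1, and reached 169, 94 and 109. These 6 clusters had 1.53, 1.80, 1.76, 1.66, 1.57 and 1.98 peaks per 10 kb in the order named, around a median of 1.85 over all dense clusters. The most tightly packed cluster was a small one, near Ireb2, an iron regulatory protein (chr9:54821477-54842737), with 8 peaks in 21.3 kb, or 3.76 per 10 kb, and pileups of 15 to 32. Itga6, an integrin gene, held 8 peaks at 3.66 per 10 kb that reached 55, and the cluster near the keratin gene Krt42 had 12 at 3.58 that reached 89. The arrays near Gas8 and Atg7 had 3.64 and 3.47.

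The highest sums outside the 14 clusters counted as arrays and the tallest single peaks are given next. A cluster was counted as an array by tRNA or rRNA genes under at least 3 peaks, or by even spacing of neighbouring summits. The cluster at Pdia4, a disulfide isomerase of the endoplasmic reticulum (chr6:47739679-47799691), had 17 peaks and the second highest sum, 1997. Its tallest peak had a pileup of 255 (exact Poisson 95% interval 225 to 288), and 7 of its 17 peaks passed 100. It held the genes of the Y RNAs Rny1 and Rny3, small RNAs bound by the Ro protein. Some spacings of its neighbouring summits were alike, at 4182, 4370, 4341 and 4408 bp, and lower peaks lay 641 to 842 bp past others. The measure of spacing compared neighbouring summits only and did not count this cluster as an array. The neighbouring cluster at Gm40365 (chr6:47626848-47686505) had 12 peaks, held the 4.5S RNA gene Rn4.5s, and reached 207, with others at 205, 193 and 200. Whether the clusters at Pdia4 and Gm40365 are tandem arrays was not tested, and both stayed in where arrays were left out. At Dynlt1b, a dynein light chain gene with near copies beside it (chr17:6357273-6490835), 19 peaks summed to 1449, the tallest at 281 (249 to 316). Near Gm46425 (chr13:65971481-66002169) the peak at the Gm40987 start, 336 (301 to 374), stood among 7 peaks of 8 to 32. The clusters near Fcgr1, Gm21119 and Gm15319 reached 309, 284 and 275. Whether reads from near-identical copies raised any of these peaks was not tested.

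Listed genes of the pluripotency network lay near dense clusters more often than protein-coding genes in general. The lists were chosen with earlier results of these data known. Zfp281 and Nr5a2 were counted through the same cluster, so the interval given for the listed genes is too narrow. Of all 20665 protein-coding genes on chromosomes 1 to 19, 1512 had a dense cluster within 50 kb, which is 7.32%. Of 34 core and naive pluripotency genes 13 did (38.2%, interval 23.9 to 55%), 7 of 15 core genes (46.7%) and 6 of 19 naive genes (31.6%). With the cluster required to overlap the gene itself the count was 9 of 34 (26.5%), beside 3.05% of all genes. Within 20 kb it was 10 (29.4%, beside 4.97%), and within 100 kb it was 15 (44.1%, beside 10.8%). Gene length moved with the share, which was 4.33% in the shortest of 5 equal bins of all genes and 9.63% in the longest, and its part in the counts of the lists was not tested. The median length of the 34 genes was 14 kb, against 24.5 kb for all genes with a dense cluster within 50 kb and 17 kb for all genes without.

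Esrrb, an orphan nuclear receptor of naive cells, had a dense cluster almost wholly within its own body. The 20 peaks (chr12:86421349-86525322) summed to 1110, and 19 of the 20, or 95%, lay inside the gene. The tallest were neighbours, at 179 (154 to 207) and 153 (130 to 179), and the other 18 ranged from 14 to 96. At Irf2bpl, on the same chromosome (chr12:86855644-86947608), 19 peaks summed to 1116 with the tallest at 137.

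Sox2, a core transcription factor beside Pou5f1, had 2 dense clusters. The cluster over the gene (chr3:34639322-34668771) had 8 peaks, with pileups of 34, 23, 44, 51, 17, 42, 28 and 94. The other (chr3:34692070-34796183) began 39.6 kb from the gene and had 16 peaks, of which 5 in a stretch had pileups of 107, 98, 94, 68 and 153 (130 to 179). The 11 remaining peaks ranged from 7 to 39. The tallest lay 109 kb from the nearest gene end. A distal control region of Sox2 is known on this side of the gene in mouse embryonic stem cells.

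Zfp281, a zinc finger factor, and Nr5a2, a nuclear receptor, share the cluster between them (chr1:136659163-136793708), with 21 peaks and a sum of 816. It lay 28.8 kb from Zfp281 and 48.9 kb from Nr5a2. Its tallest peak, 166 (142 to 193), held the Platr22 start shown above, and the next were 87 and 74. The other 18 ranged from 8 to 54. Prdm14, a repressor that keeps cells naive, had 9 peaks beginning 8.84 kb from the gene (chr1:13050353-13104585), with pileups of 12, 20, 49, 29, 33, 38, 218, 35 and 101. Here 1 peak, at 218 (190 to 249), gave 40.7% of the sum.

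The other core and naive genes had lower clusters. Jarid2, a subunit of Polycomb repressive complex 2, had 3 within 50 kb, of 15, 10 and 8 peaks with tallest pileups of 118, 42 and 41. Tet1, which oxidises methylated cytosine, had 15 peaks with the tallest at 110. Trim71, an RNA-binding regulator, had 11 with the tallest at 76. Lifr, the receptor for leukemia inhibitory factor, had 9 peaks, of which 4 neighbours stood at 84, 78, 82 and 85 and the rest at 9 to 39. Dppa5a, an RNA-binding protein of early embryos, lay inside a cluster of 9 peaks that reached 90. Nacc1, a BTB domain repressor, was overlapped by the cluster of 10 peaks at Nfix, which reached 61. The cluster of 14 at Cacna1a, also within 50 kb of Nacc1, reached 45. Sall4, a zinc finger factor, had the lowest, 10 peaks at Atp9a that reached 32, 40.3 kb away. Fbxo15, an F-box gene used as a stem cell reporter, had 9 peaks that reached 56.

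Several of the best known members of the network had no dense cluster within 50 kb. Pou5f1 had 12 distal peaks within 50 kb and Nanog 10, and the largest joined group was 5 at each. Klf4 had 5 distal peaks and a largest group of 4. Klf5 came nearest to the limit of 8, with a largest group of 7, followed by Klf2, Tbx3, Il6st, Pecam1 and Tet2 with 6. Zfp42 and Tfcp2l1 had 15 and 11 distal peaks with a largest group of 5 each.

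The microRNA genes were followed peak by peak. The 14 peaks of the miR-290 cluster had pileups of 24, 15, 15, 45, 135, 40, 55, 173, 160, 122, 89, 121, 18 and 14 from its start. The 5 peaks over 100 all lay in its middle, and the outermost 5 peaks had 14 to 24. The peak of 121 lay 332 bp past the end of the Mir295 hairpin and 2465 bp from that of Mir290a. The cluster at miR-183, miR-96 and miR-182 had pileups of 18, 51, 32, 65, 53, 104, 50, 9, 26, 16 and 77, the tallest at the Mirc35hg start. The other microRNA loci of the list, Mir302b and Mir17, had largest groups of 2 and 4.

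Germ layer genes had a share whose interval included that of all genes. Of 39 listed genes 4 had a dense cluster within 50 kb (10.3%, interval 4.06 to 23.6%), beside 7.32% of all genes. They were Pax6, Sox1 and Tubb3 of 13 neurectoderm genes and Gsc of 13 mesoderm genes, and none of 13 endoderm genes had one. Pax6, an eye and neural factor, lay in a cluster of 9 peaks that reached 52. Sox1, an early neural factor, was 21 kb from 13 peaks that reached 111. Of 16 adult tissue genes none had a dense cluster, and of 11 blood genes only Klf1, 7.67 kb from 11 peaks at Mast1.

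Signalling and chromatin genes were counted on lists of 10 to 15 genes, beside the same 7.32% of all genes. Median gene length was 54.7 kb in the Wnt list, 35.3 kb in the Polycomb list and 84.4 kb in the H3K36 list. In the formative, FGF and ERK, and Nodal and BMP lists it was 13.2, 13.7 and 6.68 kb. All genes without a dense cluster within 50 kb had a median of 17 kb. The part of length in these counts was not tested. Of 12 formative genes, which mark cells leaving the naive state, 3 had a dense cluster within 50 kb, namely Dnmt3b, Etv5 and Foxd3 (25%, interval 8.89 to 53.2%). Of 12 Wnt targets and feedback genes 4 did, Axin2, Tcf7l1, Cdx1 and Znrf3 (33.3%, 13.8 to 60.9%). Tcf7l1, the repressor that GSK3 inhibition relieves, had 2 such clusters, of 14 and 10 peaks that reached 124 and 121. Of 10 FGF and ERK feedback genes 3 did, Spry1, Dusp6 and Etv5 (30%, 10.8 to 60.3%). Etv5 stood in both lists, with 15 peaks that reached 124. Of 10 Nodal and BMP targets 2 did, Smad7 and Id3 (20%, 5.67 to 51%). Of 15 Polycomb genes 6 did, Ezh2, Eed, Jarid2, Ring1, Pcgf2 and Cbx7 (40%, 19.8 to 64.3%). Jarid2 also stood in the core list. With the cluster required to overlap the gene, the Polycomb count was 2 of 15 (13.3%, 3.74 to 37.9%), beside 3.05% of all genes. Of 12 H3K36 methylation genes 2 had a dense cluster within 50 kb, Nsd1 and Kdm2b (16.7%, 4.70 to 44.8%). The intervals of the Nodal and BMP list and of the H3K36 list include the share of all genes. A cluster is named for the gene it overlaps most or lies nearest to, so the one counted for a listed gene may carry another name, as at Ezh2 (Gm40365), Ring1 (H2-K1), Pcgf2 (Mllt6), Dnmt3b (Commd7), Cdx1 (Camk2a), Znrf3 (Xbp1) and Id3 (E2f2). Nsd1, the tagged gene, lay 3.82 kb from a cluster of 8 peaks at Fgfr4 that reached 183. At Kdm2b 11 peaks lay inside the gene, the tallest at the internal start printed above.

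**Figure D4:**
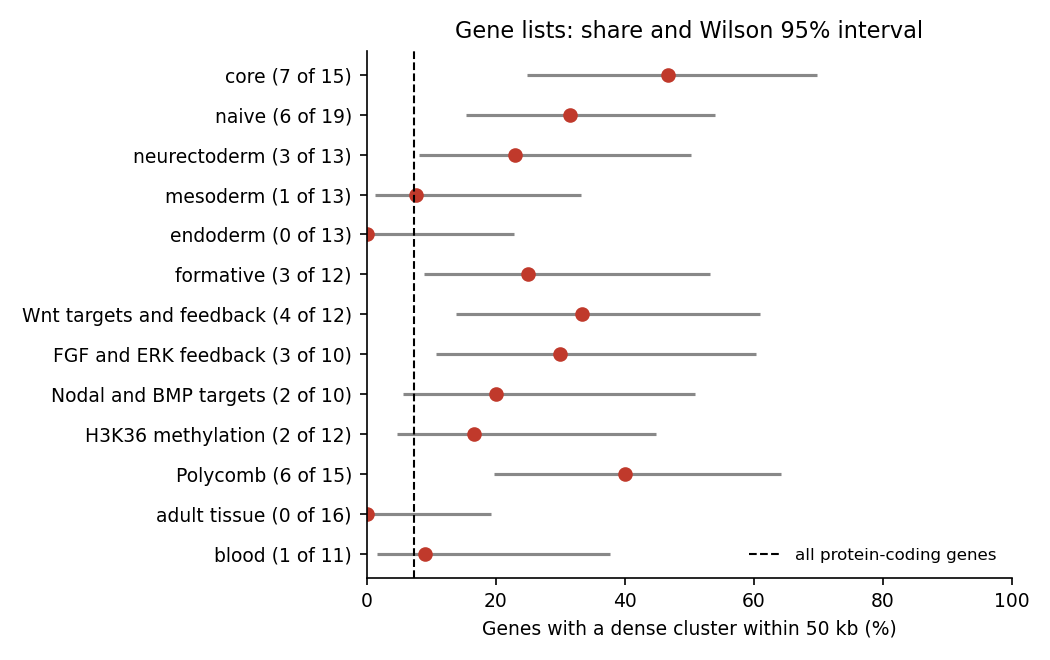
Share of each gene list with a dense cluster within 50 kb (circle) and its Wilson 95% interval (line), in percent, with counts in the labels and the share of all protein-coding genes (7.32%) as a dashed line. The core and naive lists stand at 46.7% and 31.6%, while the endoderm and adult tissue lists stand at 0%.

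Dense clusters commonly ran across genes. Protein-coding genes overlapped by a dense cluster numbered 631 of 20665, and 108 clusters (19.5%) overlapped none. Another 121 (21.8%) lay wholly inside 1 gene. A gene end lay within the span of 326 clusters (58.8%), and a peak at a gene end, which the rule had set aside, within 206 (37.2%). Member peaks lay inside protein-coding gene bodies in 53.8% of cases, against 45.3% of single peaks and 53.9% in groups of 4 to 7. Of the dense clusters 64 (11.6%) lay within 50 kb of the cluster before them on the chromosome.

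Long non-coding RNA genes were overlapped by a larger share of member peaks than of other distal peaks. An lncRNA gene lay within 325 of the 554 spans (58.7%). No share for other stretches of like length was computed, and a long span can hold such a gene by its length. Of the member peaks 15.5% overlapped one, against 9.97%, 11.7% and 13.6% of peaks alone, in groups of 2 to 3 and in groups of 4 to 7. Pseudogenes went the other way, with 0.582% of member peaks and 1.46% of single peaks.

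Annotated starts under member peaks were few. Of the 5842 member peaks 210 (3.59%) held a start of the RefSeq windows, against 3.54% of other distal peaks. Starts of protein-coding genes among them lay away from the annotated gene ends, since peaks there had been set aside. Member peaks with a start had a median pileup of 52 and those without 27. In other distal peaks the values were 46 and 19, so peaks with a start were the taller in both. The 257 start windows belonged to 208 genes, and 133 of them (51.8%, interval 45.7 to 57.8%) were of lncRNA genes, against 41.5% in other distal peaks.

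The letters of these 257 windows are set beside those of other distal starts and of all windows. The median GC content was 57% with 11 CpG, against 58.7% and 15 in other distal starts, 62.7% and 23 at gene-end peaks and 47.3% and 3 in windows without a peak. GGGNGTGG was found in 24.9% of the 257 (interval 20.01 to 30.5%), against 21.1% of other distal starts and 17.7% of all 31396 windows. ACAAAG was found in 20.6% (16.1 to 26.0%), against 17.1% and 18.6%, and ATGCAAAT in 1.95%, against 1.93% and 1.75%. AGGGGGC was found in 14.4%, GGAATG in 13.6%, AGATAA in 8.17% and TGANTCA in 7.004%. In other distal starts they were found in 16.3%, 15.3%, 6.48% and 6.48%, and in all windows in 10.7%, 14.6%, 11.2% and 7.84%. CTTTGAT, CAAGGTCA and TTCCNGGAA were found in 2.33%, 0.778% and 1.17%, beside 3.54%, 1.4% and 1.01% of other distal starts and 3.76%, 1.54% and 1.18% of all. CTTTGAT shares 5 letters with the reverse complement of ACAAAG, so their matches may lie on overlapping bases. A match is a run of letters and was not tied to any factor.

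The share of distal peaks that lay in dense clusters varied between chromosomes. It was lowest on chromosomes 9 (6.06%) and 1 (6.08%) and highest on chromosome 17 (13.3%). Peaks enter dense clusters in blocks of 8 or more, 20 clusters on chromosome 9 and 35 on chromosome 17, so an interval over single peaks is too narrow for these shares, which describe the choice of members. Chromosome 11 had the most distal peaks per Mb, 32.8, and 11.7% of them in dense clusters, while chromosome 9, with 26.2 per Mb, had close to the same density as chromosome 10, with 26.5 per Mb and 12.4%.

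**Figure D5:**
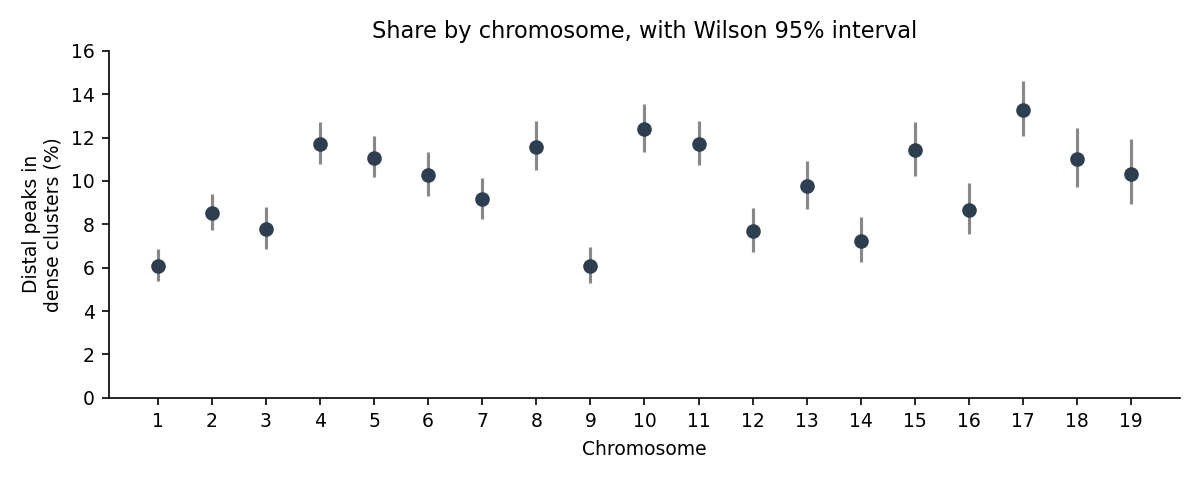
Share of distal peaks that lay in dense clusters on each autosome, in percent (circle), with Wilson 95% intervals (line) that treat peaks as independent and so are too narrow. Chromosomes 9 and 1 stand lowest, near 6%, and chromosome 17 highest, at 13.3%.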

How the data were processed

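ATAC-seq peaks of 1 library, untreated E14 NSD1-dTAG stem cells, were analysed. The submitters' processing notes list MACS2 2.2.6, which calls peaks, the aligner Bowtie2 2.3.4.1, and SAMtools 1.9, with mm10 (GRCm38.p6) as the build. Removal of duplicates and limits on mapping quality are not stated. Either could change peaks in repeated sequence.

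In the deposited list each peak has a whole-number score, which is -log10 q times 10 rounded down, and the authors' fold, a ratio of summit pileup to local background. It also gives the authors' -log10 p and -log10 q, called at a q of 0.05 on this 1 sample. The total read count was not given, so the depth of the library is unknown. Summit pileups were recovered by solving the fold and the Poisson p together, and came out whole in 100% of peaks on chromosomes 1 to 19 (tolerance 0.01). Reads or fragments may be the unit, which is not stated. Intervals cover counting error only, and PCR copies are not independent molecules.

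Gene ends, biotypes and sequences came from RefSeq tables of GRCm38.p6. Peaks were joined in Python 3.11.15 with numpy 2.4.6 and pandas 2.3.3, and the joining was checked on simulated data. Shares carry Wilson 95% intervals, and medians order-statistic intervals. Those over peaks or tRNA genes treat neighbours as independent and are too narrow. Clusters named are the 10 with the most peaks, the 5 with the highest sums, peak density or tallest peaks, and those within 50 kb of a core or naive gene. A cluster takes the gene it overlaps most, otherwise the nearest. Further clusters were named after their values were seen. The members and lists were chosen with earlier results of these data known. A motif search at summits needs a genome sequence, which was not used here, and start windows were searched in its place.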

Additional observations from a re-analysis of the deposited data

Results flagged for a closer look

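Chromosome X lies outside the autosomes that the rule covers, and joining its distal peaks in the same way gave 6 dense clusters. They held 78 of its 1716 distal peaks (4.55%, Wilson 95% interval 3.66 to 5.64%), a lower share than the 9.76% of the autosomes, and the largest had 20 peaks. Median pileup was 29 inside them and 18 outside. There was no control sample to set beside this count.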

How the results depend on the processing

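Results were recomputed under 10 ways of joining or filtering peaks that were planned, 1 added after seeing the data, and 3 other distances to the listed genes. In each of the 11 ways, member peaks had a higher median pileup and a lower median fold than other distal peaks. With gaps of 5 kb or less, 7 clusters were left, with 0.204% of distal peaks and a median span of 29.3 kb. Their peaks had a median pileup of 46.5 and fold of 4.69, and 0% lay in genes. A gene-end peak lay in 0% of these clusters, and the tallest peak gave a median of 18.96% of the sum. Of core and naive as of germ-layer genes 0% had such a cluster within 50 kb, beside 0.0774% of all genes. With gaps of 25 kb or less there were 1543 clusters, with 35.5% of peaks, 99.2 kb, pileup 24, fold 6.11, 56.1% in genes, 68.6% with a gene-end peak, 21.9% in the tallest, and 82.4% of core and naive and 30.8% of germ-layer genes, beside 28.4% of all genes. A minimum of 6 peaks gave 1245 clusters, 17.1% of peaks, 40.1 kb, pileup 26, 30.3% with a gene-end peak, 27.7% in the tallest and 55.9% of core and naive genes, beside 15.1% of all. A minimum of 10 gave 278 clusters, 5.91%, 64.7 kb, fold 5.64, 41.7% and 20.4%. Distances of over 500 bp and over 2.5 kb from gene ends gave 11.01% and 7.38% of distal peaks, the latter with 22.7% of clusters holding a gene-end peak. Peaks with a -log10 q of at least 5 gave 266 clusters, 5.46% of peaks, pileup 35, fold 6.36, a width of 492 bp, 45.8% in genes and 23.5% of core and naive genes, beside 3.67% of all. Peaks with a pileup of at least 20 gave 135 clusters, 4.46%, 48.8 kb, pileup 43, fold 6.12, width 499 bp, 40.7% in genes, 43.0% with a gene-end peak, 21.9% in the tallest, 17.6% of core and naive and 0% of germ-layer genes, beside 2.13% of all. Distance from the ends of all RefSeq genes gave 363 clusters, 6.81%, fold 5.66, 60.9% in genes and 45.5% with a gene-end peak. Leaving out the tRNA, 5S rRNA and evenly spaced arrays, the added choice, gave 9.41% of peaks and 55.7% in genes. Counting only clusters that overlap the gene gave 2.56% of germ-layer genes. The summit motif search and its narrower window were not run. No paired analysis was possible because 1 library was analysed. The depth of the library is unknown, so it was not possible to say which gaps hold sites too weak to be called.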

Other observations

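The cluster nearest Frmd8 (chr19:5777510-5847205) ran over Malat1 and Neat1, a pair of abundant nuclear lncRNA genes that are known for nuclear speckles and paraspeckles. Its 16 peaks had pileups of 24, 55, 55, 33, 113, 59, 32, 68, 62, 63, 27, 16, 12, 58, 55 and 95. They summed to 827, and none lay inside a protein-coding gene. It was 1 of the 6 clusters that still gave a group of 8 or more peaks with gaps of 5 kb or less, beside those at Scn3a, Pdia4, Atg7, the miR-290 genes and Gas8.

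Chromosome Y, also outside the rule, had 2 dense clusters with 33 of its 214 distal peaks (15.4%, Wilson 95% interval 11.2 to 20.9%) and a median pileup of 97 inside them and 15 outside. Whether reads from near-identical copies raised these pileups was not tested.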
